A study of Mus musculus with 12 samples.

Results

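The Sonic hedgehog pathway genes described here are 9 named components: the ligand Shh, the release factor Disp1, the receptors Ptch1 and Smo, the inhibitors Hhip and Sufu, and the transcription factors Gli1, Gli2 and Gli3. They were chosen by name, as 9 of the 21938 protein-coding genes on the nuclear chromosomes. The mark measured was H3K4me3, which sits on histones at promoters in use or held ready. The assay was CUT&Tag, in which an antibody-tethered transposase cuts DNA beside the mark. Tissue came from E12.5 embryonic forebrain of wild-type C57BL/6J mice, dissected into the medial, lateral and caudal ganglionic eminences (MGE, LGE and CGE) and the somatosensory cortex (CTX). The sample protocol and the study's methods also name a later embryonic age and describe nuclei of all 4 regions as pooled in equal numbers. The study's results, however, give E12.5 for the assay, and every sample carries the label of 1 region. Per the labels there were 12 samples, 3 of MGE, 2 of LGE, 4 of CGE and 3 of CTX, from 2 replicates of each region. The last number of each title was taken as a run of the same replicate, so the number of separate libraries is not known.

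Sonic hedgehog is a secreted lipid-modified protein that patterns the neural tube from its ventral side. Without it, Ptch1 holds Smo inactive, and Sufu together with repressor forms of Gli3 and Gli2 keeps target genes off. When it binds Ptch1, Smo signals through the primary cilium and activator forms of Gli2 and Gli1 turn targets on, among them Gli1, Ptch1 and Hhip themselves. In the ventral forebrain the pathway is known for specifying the MGE and its Nkx2-1 expressing progenitors, and Gli3 is known for its role in the dorsal telencephalon.

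The data used were 1 list of broad peaks per region, called after the replicates had been merged, so no value below has a replicate error and no difference between regions could be tested from these lists. Reads and peaks of single replicates were not analysed here. The MGE list held 25339 peaks with a median width of 563 bp, the CTX list 21442 peaks of 701 bp, the LGE list 17284 peaks of 1168 bp and the CGE list 17752 peaks of 1240 bp. MGE and CTX thus had more and narrower peaks than LGE and CGE. The study's methods state the depth of each replicate before merging. Summed over replicates it is highest in CGE and lowest in MGE, although a CTX replicate's depth is misprinted there. The number of merged, de-duplicated reads behind each peak is unknown. Each gene was therefore given 2 values per list. One was its covered bases, the bases under peaks within 5 kb of any of its annotated transcription start sites (TSSs). The other was its within-list percentile, the rank of its covered bases among all protein-coding genes of the same list, from 0 to 100. Genes without a peak shared a percentile of 17.5 in MGE, 17.9 in LGE and 17.7 in CGE, with 18.1 in CTX. Positions are from GRCm38 with GENCODE M21 gene models, and distances run from the 5′ end of the gene model into the gene. Where 4 values follow each other without region names, they are in the order MGE, LGE, CGE, CTX. This order is called ventral to dorsal below by convention. CGE is the caudal eminence, and its place between LGE and CTX was a choice.

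A peak lay within 5 kb of a TSS at 9 of 9 genes in MGE, against 65.0% of all protein-coding genes. The same held for 9 of 9 in LGE (64.2% of all genes), 9 of 9 in CGE (64.6%) and 8 of 9 in CTX (63.8%). The gene without a CTX peak was Shh. Thus 8 of 9 had a peak in all 4 lists, against 61.3% of all genes. Shh fell in the class of 245 genes, 1.12% of all, with a peak in MGE, LGE and CGE and none in CTX. Because tissue was profiled in bulk, fewer cells carrying the mark and less mark per cell cannot be told apart.

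The 9 genes were among the more broadly covered of the genome. Their median percentile was 89.1 in MGE, 94.0 in LGE and 95.1 in CGE, with 91.3 in CTX. Above the 90th percentile lay 4 of the 9 in MGE, 5 in LGE and 7 in CGE, against 5 in CTX. Their median covered bases were 1678 in MGE against 1043 for all genes with a peak, 2636 against 1402 in LGE, 3044 against 1496 in CGE and 1844 against 1088 in CTX. Ptch1 lay above the 99th percentile in each list, though not with lists of equal size, around its 5′ end alone or by its widest peak. Disp1 was the exception, between 42.1 and 51.2, the lowest of the 8 genes with a peak in all 4. Ranked over genes with a peak alone, it lay at 21.6 in LGE, 14.3 in CGE and 9.27 in CTX, with MGE highest.

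**Figure D1:**
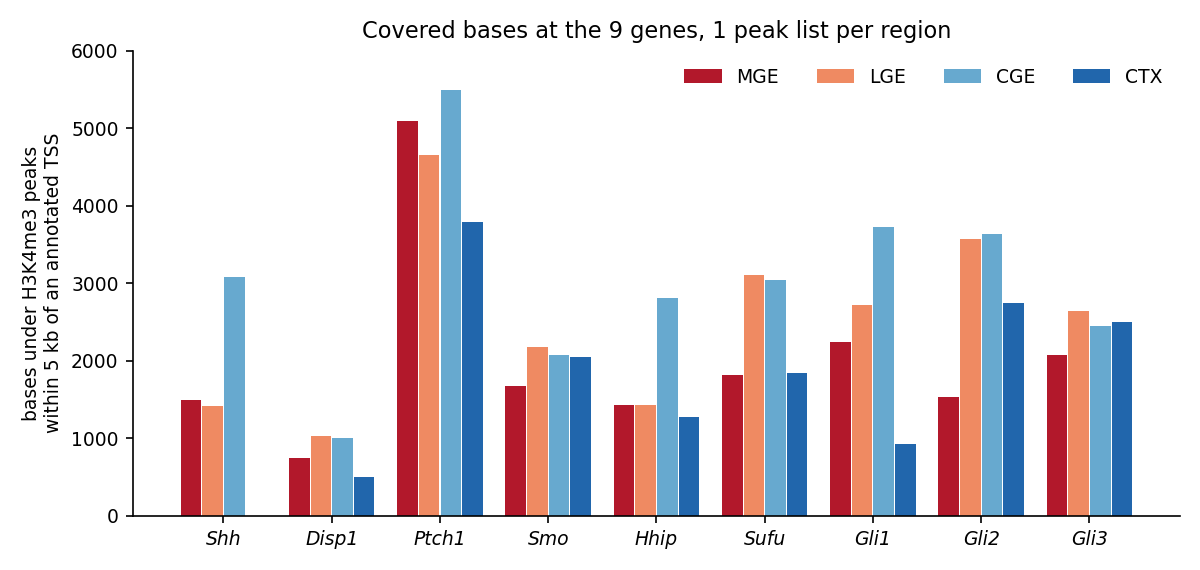
Bases under H3K4me3 peaks within 5 kb of an annotated TSS (vertical axis, bases) for the 9 genes in the MGE, LGE, CGE and CTX lists, 1 bar per list and no error bar because there is 1 list per region. Shh has 3078 bases in CGE and no bar in CTX, Gli1 falls to 925 in CTX, and Ptch1 is the most covered gene in each list.

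RefSeq promoter windows, 250 bases before to 50 after a start on GRCm38.p6, were matched for 7 of the 9 genes, 8 windows in all. Shh and Gli1 had no entry. Those of Ptch1 and Disp1 are shown because their marking differed most, and capitals mark each CG dinucleotide. Disp1 had a pair of windows, one at its 5′ end that was marked in each list and one inside the gene that was marked in none. The Ptch1 window, at a start inside the gene model, was marked whole in LGE and CGE only. The Gli3 window, marked whole in each list, is given for comparison.
Ptch1, chr13:63565686-63565985, minus strand: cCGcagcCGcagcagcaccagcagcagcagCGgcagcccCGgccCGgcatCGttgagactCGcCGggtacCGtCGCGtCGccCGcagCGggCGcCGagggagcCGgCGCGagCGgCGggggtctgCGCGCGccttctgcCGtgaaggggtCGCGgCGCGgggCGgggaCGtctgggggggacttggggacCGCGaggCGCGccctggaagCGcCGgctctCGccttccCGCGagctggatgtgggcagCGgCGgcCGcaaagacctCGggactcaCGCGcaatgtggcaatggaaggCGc
Gli3, chr13:15463473-15463772, plus strand: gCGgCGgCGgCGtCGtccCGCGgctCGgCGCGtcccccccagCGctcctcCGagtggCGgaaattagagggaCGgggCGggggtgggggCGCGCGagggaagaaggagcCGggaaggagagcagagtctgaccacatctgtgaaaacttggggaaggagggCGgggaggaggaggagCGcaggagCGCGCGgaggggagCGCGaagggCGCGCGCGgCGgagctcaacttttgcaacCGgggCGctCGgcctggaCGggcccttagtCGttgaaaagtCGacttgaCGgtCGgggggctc
Disp1 at the 5′ end, chr1:183221480-183221779, minus strand: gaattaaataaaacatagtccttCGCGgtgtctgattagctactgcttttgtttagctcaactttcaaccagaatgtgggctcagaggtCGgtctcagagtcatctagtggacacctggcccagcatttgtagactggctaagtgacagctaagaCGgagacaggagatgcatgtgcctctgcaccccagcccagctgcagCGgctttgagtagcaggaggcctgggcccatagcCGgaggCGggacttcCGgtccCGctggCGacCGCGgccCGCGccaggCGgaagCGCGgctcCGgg
Disp1 inside the gene, chr1:183147508-183147807, minus strand: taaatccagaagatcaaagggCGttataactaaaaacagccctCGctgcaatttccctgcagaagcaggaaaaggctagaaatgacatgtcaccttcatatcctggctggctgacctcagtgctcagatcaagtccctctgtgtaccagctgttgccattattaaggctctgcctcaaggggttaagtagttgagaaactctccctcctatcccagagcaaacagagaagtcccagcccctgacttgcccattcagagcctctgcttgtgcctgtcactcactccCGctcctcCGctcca

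The 300-base Ptch1 window held 47 CG dinucleotides and that of Gli3 held 39. The Disp1 window at the 5′ end held 18 and the internal one 4. Among all 32841 RefSeq promoter windows the median count was 7. It was 22 for windows touched by a peak in MGE, and likewise in each of the other lists, and 3 for the 18354 windows touched by none. The remaining windows held 30 (Hhip), 28 (Gli2), 17 (Smo) and 12 (Sufu). The 9 letters GACCACCCA, the core motif bound by Gli proteins, were searched on both strands (TGGGTGGTC on the other) and occurred in 0 of the 8 windows and in 0.253% of all windows, which says only that these letters are not in these windows.

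Shh encodes the ligand and lies at chr5:28456815-28467256 on the minus strand, with 1 annotated TSS at its 5′ end. It had 3 peaks in MGE, 2 in LGE and 2 in CGE, with 0 in CTX. Its covered bases were 1496 in MGE, 1417 in LGE and 3078 in CGE, with 0 in CTX. CGE therefore had about the bases of MGE and LGE together, and CTX stood apart from all 3 eminences. As percentiles these were 84.8 in MGE, 68.6 in LGE and 95.3 in CGE, against 18.1 in CTX, so that the order from ventral to dorsal was not a steady fall. Within 2 kb of the TSS, a limit that cuts into the intronic peaks of MGE, LGE and CGE, Shh had 593, 749, 1877 and 0 bases, at percentiles of 47.1, 42.7, 83.6 and 19.3.

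The Shh peaks lay inside the gene in a like arrangement in the 3 eminence lists. In MGE a 470 bp peak ran from 80 to 549 bp downstream of the TSS and was wholly exonic, an 896 bp peak from 1878 to 2773 bp was wholly intronic, and a 130 bp peak began 4013 bp downstream. In LGE the first peak spanned 124 to 803 bp (680 bp) and the second 1932 to 2668 bp (737 bp). In CGE both stretches were joined in 1 peak of 2665 bp from 124 to 2788 bp, with a further peak of 413 bp from 3785 to 4197 bp. The TSS itself was under a peak in none of the 4 lists. In CGE 1 more peak of 623 bp lay in the gene body beyond 5 kb.

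By the rank of their fold enrichment within each list, the Shh peaks were weak to middling. The intronic MGE peak reached a fold percentile of 41.9 among MGE peaks, the exonic one 24.0 and the shortest 0.408. In LGE the intronic peak stood at 32.3 and the exonic one at 4.07, and the wide CGE peak stood at 19.0. Width ranked otherwise, since the CGE peak was at the 95.7th percentile of widths in its list and the intronic MGE peak at the 70.0th. Shh was thus marked by stretches that were long in CGE but in no list highly enriched.

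Other transcripts start in the same window. The TSS of the antisense RNA 9530036O11Rik lies 272 bp inside Shh and was under a peak in MGE, LGE and CGE. That of the long intergenic RNA Gm26894, at 882 bp, was under a peak in CGE alone. H3K4me3 carries no strand, so marking of Shh and of these starts cannot be told apart.

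In CTX the nearest listed peaks lay 144660 bp below and 723142 bp above the Shh window, and their peak names carry consecutive numbers. A number is missing from some names elsewhere, 31 in CTX, 33 in MGE, 59 in LGE and 64 in CGE. Beside the windows of the 9 genes, between the nearest listed peaks on either side, 1 number was missing at Disp1 in CGE and none in the other gene and list pairs.

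Disp1 encodes the transporter-like protein that releases the lipid-modified ligand from producing cells. It lies at chr1:183086266-183221522 on the minus strand with 5 annotated TSSs, of which 3 were under a peak in each list. It had 1 peak per list, over its 5′ end, of 740 bp in MGE, 1029 bp in LGE and 996 bp in CGE, with 498 bp in CTX. LGE and CGE were widest and CTX narrowest. The percentiles of these covered bases were 51.2, 49.7, 44.6 and 42.1 in the order MGE, LGE, CGE and CTX. This made Disp1 the only one of the 9 whose percentile fell at each step from ventral to dorsal, a pattern that 3.69% of genes with a peak in any list had, and its steps were of at most a few points. With lists of equal size Gli3 fell at each step as well, as did Ptch1 when genes were ranked by their widest peak. The Disp1 peak ranked higher by enrichment than by width. The fold percentile was 65.2 in MGE, 83.6 in LGE and 96.3 in CGE, with 85.9 in CTX, while the width percentile was 60.9, 39.5, 32.3 and 37.0. Of the 300 bases printed for its 5′ end, 139, 209, 176 and 116 were under the peak, and of the internal window 0 in each list.

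Ptch1 encodes the receptor for the ligand and restrains Smo. It lies at chr13:63508328-63573598 on the minus strand, with 10 annotated TSSs, the most of the 9 genes, and windows that together span 45424 bases. Its covered bases were 5099 in MGE, 4652 in LGE and 5497 in CGE, against 3792 in CTX. CGE was highest and CTX lowest, but each value lay near the top of its own list, at percentiles of 99.9, 99.4, 99.5 and 99.6. These percentiles ranged over 0.570 points, the narrowest range of the 9 genes, at the top of a scale that ends at 100. This depended on peaks of lower fold and on the internal starts. With lists of equal size Ptch1 had 1992, 4652, 5165 and 373 bases at percentiles of 95.9, 99.4, 99.6 and 42.1, so that CTX stood far below the eminences. Around the 5′ end alone the percentiles were 85.3, 75.0, 75.5 and 61.1.

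That breadth came from 2 main stretches of marking. A peak over internal TSSs, about 8 to 10 kb from the 5′ end, measured 2261 bp in MGE, 3173 bp in LGE and 3241 bp in CGE, with 2056 bp in CTX. It covered 4 starts in MGE and CTX and 5 in LGE and CGE. The difference fell on the printed RefSeq window. It lay in a gap between a pair of peaks in MGE, with 0 of its 300 bases covered, and almost so in CTX, with 26 covered, whereas in LGE and CGE 1 peak ran across all 300. The second stretch, at the 5′ end, measured 1366 bp in MGE, 1479 bp in LGE and 1581 bp in CGE, with 891 bp in CTX. The 5′ end was under this peak in the eminence lists, while in CTX the peak began 93 bp inside the gene.

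Counted around the 5′ end alone, Ptch1 stood at percentiles of 85.3 in MGE, 75.0 in LGE and 75.5 in CGE, against 61.1 in CTX. MGE was the highest here as over all starts, while CTX was now the lowest, a place that LGE held among the near-maximal values over all starts. In all, 6 of the 10 starts were under a peak in MGE, 7 in LGE and 7 in CGE, with 5 in CTX. The start of A930032L01Rik, 5544 bp inside Ptch1, was under a short peak in MGE, CGE and CTX.

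Smo, the membrane protein that passes on the signal once Ptch1 is bound, lies at chr6:29735503-29761365 on the plus strand. It had 1 peak in each list, over both of its annotated TSSs, of 1678 bp in MGE, 2174 bp in LGE and 2074 bp in CGE, with 2051 bp in CTX. Only MGE stood lower in bases. In percentiles, 89.1 in MGE, 88.9 in LGE and 85.1 in CGE, with 93.7 in CTX, the highest was CTX. The peaks began at -126, -124, -101 and -134 bp in the order MGE, LGE, CGE and CTX, and their exonic part was 1552, 2050, 1973 and 1917 bp.

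Hhip encodes a membrane protein that binds and sequesters the ligand and is a target of the pathway. It lies at chr8:79965851-80058006 on the minus strand. Its covered bases were 1432 in MGE, 1424 in LGE and 2813 in CGE, against 1274 in CTX, about alike in 3 lists and higher in CGE. The percentiles were 83.1, 68.8, 93.7 and 76.6. Among the eminences the percentiles of Shh and Hhip had the order CGE above MGE above LGE. Gli1 had this order too, at 97.6 in CGE, 95.9 in MGE and 94.6 in LGE. With lists of equal size this order was lost for Shh, at 62.1 in MGE and 68.6 in LGE. The share of all genes with this order was not counted, so it is not read as a trait of these genes. In each list 1 peak covered the 5′ end, and the CGE peak reached 2161 bp into the gene against 854 bp for the 5′ peak of MGE, 933 bp in LGE and 733 bp in CTX.

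Sufu, the cytoplasmic protein that holds Gli factors inactive, lies at chr19:46396896-46488804 on the plus strand. Its covered bases were 1821 in MGE, 3103 in LGE and 3044 in CGE, with 1844 in CTX, at percentiles of 91.6, 96.5, 95.1 and 91.3. LGE and CGE were higher in both measures as the peaks were called. With peaks less than 1 kb apart joined, the bases were 2687, 3103, 3044 and 2680 and the percentiles 97.2, 96.4, 95.1 and 97.1, so that the order of percentiles turned over. In MGE the bases came from 2 peaks of 785 and 1036 bp and in CTX from 2 of 808 and 1036 bp, while LGE and CGE had 1 peak across both. The 1036 bp peaks of MGE and CTX had the same coordinates. The upstream peak lay over the starts of Actr1a, a dynactin gene on the opposite strand whose nearest start lies at -1148 bp, so part of the bases counted for Sufu lie at that gene.

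Gli1 encodes an activator that is itself a target and is widely used as a readout of the pathway. It lies at chr10:127329882-127341974 on the minus strand with 4 annotated TSSs. Its covered bases were 2246 in MGE, 2721 in LGE and 3728 in CGE, with 925 in CTX, and its percentiles 95.9, 94.6, 97.6 and 59.2. The 3 eminence lists lay close together and CTX far below.

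The shape differed as well as the amount. In MGE the marking was 1 peak of 2246 bp from 762 to 3007 bp inside the gene. In LGE the matching peak spanned 483 to 2870 bp (2388 bp), with a further peak of 333 bp. In CGE it spanned from 478 bp upstream to 2957 bp inside (3436 bp) and was the only one over the 5′ end, covering 3 of the 4 starts. In CTX the same stretch held short peaks of 127 and 164 bp, with 261 bp upstream and 373 bp near 9.3 kb. The TSS of the antisense RNA Gm47200 lies at 9583 bp and was under the short distal peak in LGE, CGE and CTX. None of the CTX peaks covered a Gli1 start. Joining peaks less than 1 kb apart raised the CTX bases to 1788 and the CTX percentile to 89.3, against 94.8 in MGE, so the CTX value of Gli1 rested in part on a gap between short peaks.

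**Figure D2:**
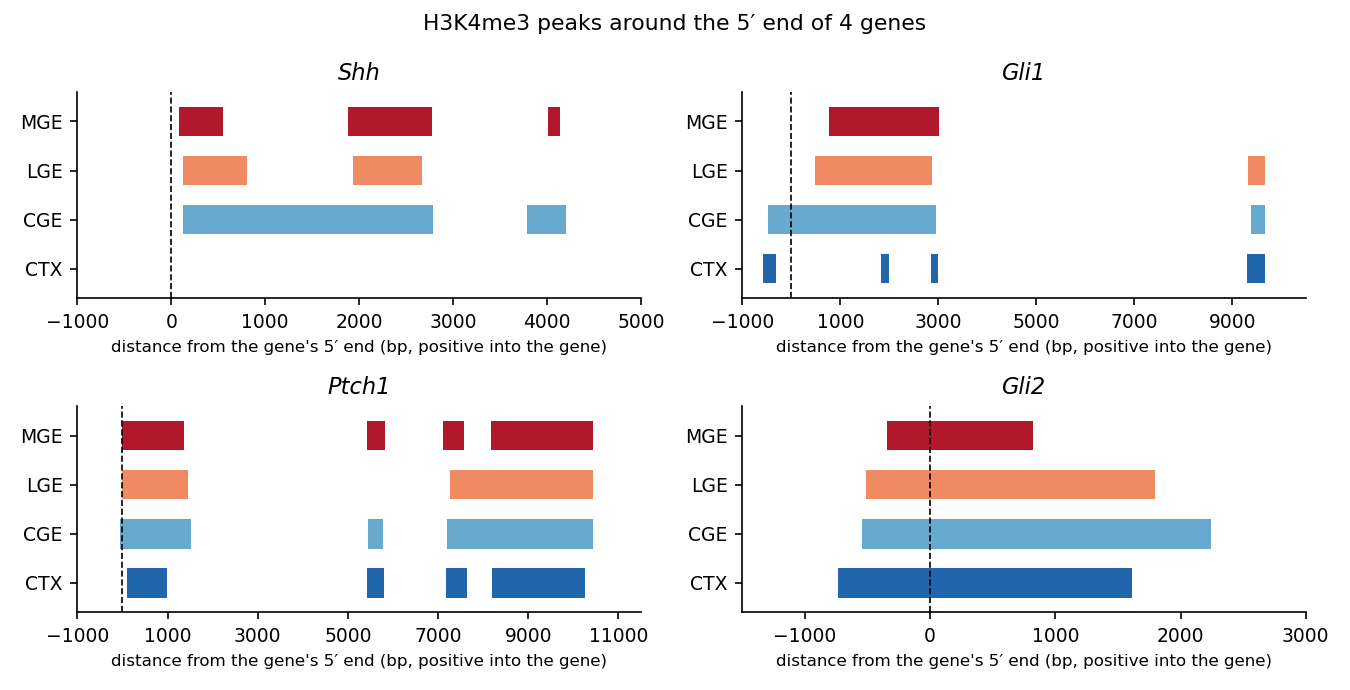
Peaks of the 4 lists around the 5′ ends of Shh, Gli1, Ptch1 and Gli2, as bars by distance from the gene's 5′ end (horizontal axis, bp, positive into the gene; dashed line at the 5′ end; scales differ between panels). Shh has no bar in CTX, Gli1 has 1 long peak in each eminence and short ones in CTX, and the Gli2 peak is shortest in MGE.

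Gli2 encodes the main activator acting on first exposure to the signal. It lies at chr1:118834132-119053619 on the minus strand with 3 annotated TSSs, which were under a peak in each list. Its covered bases were 1536 in MGE, 3574 in LGE and 3640 in CGE, against 2740 in CTX. Here MGE was the lowest, also by percentile, at 85.9 against 98.0, 97.4 and 98.0. The peak over the 5′ end measured 1167 bp in MGE and 2306, 2786 and 2348 bp in the other lists. The shorter MGE peak ended 820 bp inside the gene, where the others ended 1797, 2239 and 1613 bp inside. At the internal start, about 71 kb into the gene, the peaks measured 369 bp in MGE, 1268 bp in LGE and 854 bp in CGE, with 392 bp in CTX.

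Gli3, whose product acts mainly as a repressor, lies at chr13:15463235-15730026 on the plus strand with 4 annotated TSSs close together. Each start was under 1 peak in each list, of 2069 bp in MGE, 2636 bp in LGE and 2453 bp in CGE, against 2355 bp in CTX. With a further 149 bp in CTX the covered bases were 2069, 2636, 2453 and 2504, and the percentiles 94.5, 94.0, 90.5 and 97.1. CTX had the highest percentile and CGE the lowest, over a range of 6.64 points. With lists of equal size Gli3 had 0 bases in CTX, which was then lowest at 19.7, against 96.5 in MGE. The start of the noncoding transcript Gm6556 at 501 bp lies under the same peak in each list. Beyond 5 kb of its starts, Gli3 held 3 more peaks of 2541 bases together in MGE, 1 of 491 in LGE, 1 of 841 in CGE and 3 of 1321 in CTX.

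**Figure D3:**
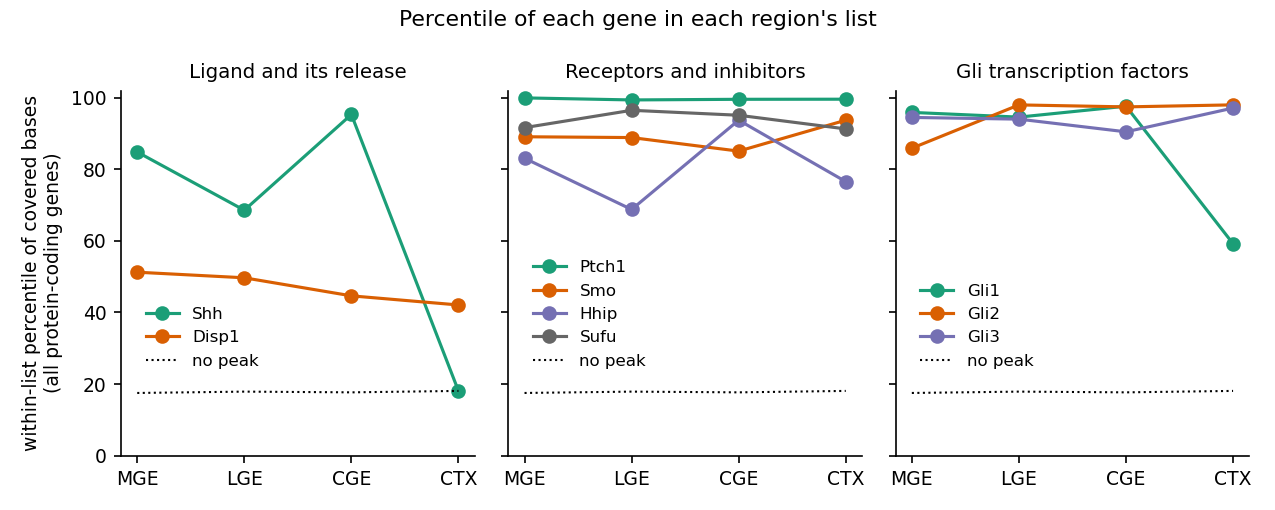
Within-list percentile of covered bases (vertical axis, 0 to 100, over all protein-coding genes) in the order MGE, LGE, CGE, CTX for the ligand and its release, the receptors and inhibitors, and the Gli factors; lines join 1 value per list and the dotted line is the percentile of genes without a peak. Shh and Gli1 drop in CTX, Gli2 is lowest in MGE, and Ptch1 stays above 99.

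Along the order from ventral to dorsal, the 9 genes did not move together. The percentile was lowest in CTX for 4 of the 9 (Shh, Sufu, Gli1 and Disp1), against 21.2% of genes with a peak in any list. For Sufu it was lower than in MGE by only 0.356 points, and once neighbouring peaks were joined Sufu was lowest in CGE. With lists of equal size Ptch1 and Gli3 were lowest in CTX too, as was Ptch1 around the 5′ end alone and by its widest peak. The percentile was lowest in MGE for 1 (Gli2), against 24.3%. Covered bases were highest in CGE for 5 of the 9, against 72.8% of all such genes, in the list with the widest median peak. They were fewest in CTX for 5 (Shh, Ptch1, Hhip, Gli1 and Disp1), against 37.7%.

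MGE and CTX, the ends of the order, both had lists of many narrow peaks, and their percentiles were set against each other over the 14625 genes with a peak in either. A difference of at least 10 points upward in MGE was found for 2 of the 9 genes, Shh and Gli1, against 12.4% of all. The Shh difference was 66.7 points, and 10 genes (0.0684%), Shh included, differed as far. The other 9 were Nkx2-1, Slc32a1, Sp9, Grik3, Lhx8, Gsx1, Fgf16, AW551984 and Nefh, each without a CTX peak. On this percentile scale no gene with a CTX peak could differ as far, so this trait follows from the size of the difference. The Gli1 difference was 36.7 points, reached by 113 genes (0.773%). In the opposite direction 1 gene passed 10 points, Gli2 at -12.1, against 10.9% of all genes, and 1346 genes (9.20%) differed as far.

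The other 6 differences were 9.15 points for Disp1, 6.52 for Hhip, 0.365 for Ptch1, 0.356 for Sufu, -2.62 for Gli3 and -4.63 for Smo. The median over the 9 genes was 0.365 points and over all genes 0.123, with 5% of genes below -19.3 and 5% above 19.1. The median of the 9 was thus near that of all genes, and Shh and Gli1 lay outside the span between these limits. With no replicate lists these differences have no test. Over 9 alternative settings Shh ranged from 27.8 to 76.6 points and Gli2 from -20.7 to -10.3. Gli1 ranged from 5.42, with peaks joined, to 58.4. With lists of equal size Gli3 had no CTX peak and its difference turned to 76.8, and that of Ptch1 rose to 53.7.

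**Figure D4:**
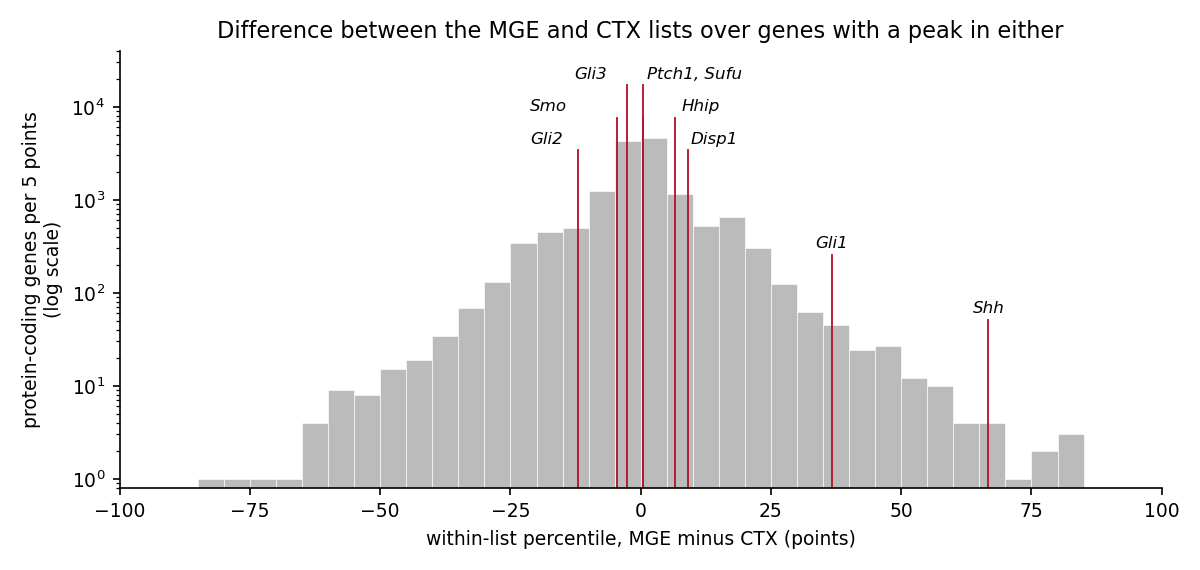
Number of protein-coding genes (vertical axis, log scale, per 5 points) by within-list percentile in MGE minus that in CTX (horizontal axis, points), with red lines at the 9 genes. Shh at 66.7 and Gli1 at 36.7 lie in the right tail, Gli2 at -12.1 to the left, and the other 6 genes within 10 points of 0.

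Where a peak existed, the 5′ end of the gene itself was under it at 7 of 9 genes in MGE, against 76.2% of all genes with a peak. This was so for 7 of 9 in LGE (80.7%), 8 of 9 in CGE (82.0%) and 6 of 8 in CTX (77.4%). Shh was the exception in each eminence list, Gli1 in MGE, LGE and CTX, and Ptch1 in CTX. Smo, Sufu, Hhip, Gli2, Gli3 and Disp1 had a marked 5′ end in all 4 lists.

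The regions were checked by marker genes, since tissue of a neighbouring region can move with these results. The MGE markers Nkx2-1, Lhx6 and Lhx8 had peaks at 3 of 3 genes in each eminence and at 1 of 3 in CTX, and their summed covered bases were 8385 in MGE, 7853 in LGE and 12214 in CGE, with 451 in CTX. Nkx2-1 and Lhx8 were without a peak in CTX, as Shh was. The 5 cortical markers (Emx1, Neurod6, Tbr1, Eomes and Neurog2) had peaks in each list, and their summed bases were 2037 in MGE, 12301 in LGE and 12003 in CGE, with 8266 in CTX. LGE and CGE thus carried broad marking at both MGE and cortical markers, led among the latter by Emx1 with 3337 and 3453 bases. The cortical marker Neurod6 was an exception, with 328 bases in MGE, 1132 in LGE and 584 in CGE, and 242 in CTX. Markers of hypothalamus and diencephalon were also marked, Otp with 538 bases in MGE, 2201 in LGE and 2542 in CGE, with 0 in CTX, and Foxb1 with 126, 1602, 1427 and 0, while Nkx2-4 had no peak. The hypothalamus expresses Shh as well. The part of neighbouring tissue in the Shh and Gli1 values was not tested.

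The markers of LGE (Ebf1, Isl1, Foxp1, Meis2) and of CGE (Nr2f2, Prox1, Nr2f1) had a peak in each list. Summed bases of the first were 9485 in MGE, 17850 in LGE and 22312 in CGE, against 10282 in CTX, and of the second 9483, 14527, 23189 and 6972, led in CGE by Nr2f2 with 12460. The progenitor markers Sox2, Nes, Pax6 and Hes5 were marked in each list, with summed bases of 8201, 15697, 17113 and 13724. Summed bases also carry the differing peak widths of the lists. The median percentiles of these markers lay closer together, at 96.3, 98.3, 97.8 and 98.7. Pax6 differed most, with 1062 bases in MGE against 5724, 6739 and 5534, a percentile difference between MGE and CTX of -31.6 points. The microglial markers Aif1, Cx3cr1 and Csf1r were without a peak in all 4. Blood markers (Hba-a1, Klf1) summed to between 971 and 1582 bases, and endothelial markers (Cldn5, Pecam1, Kdr) to between 1675 and 2248. Meningeal and mesenchymal markers (Col1a1, Pdgfrb, Foxc1) summed to 1720 in MGE, 2157 in LGE and 4667 in CGE, with 1405 in CTX. Foxc1 alone had 2835 in CGE. Roof and choroid plexus markers (Ttr, Msx1, Lmx1a) summed to 575, 1801, 2228 and 2663, with Ttr unmarked throughout.

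A wider list of 55 pathway genes, the 9 included, was then described. Of the 46 others, 40 had a peak in all 4 lists, 5 in some and 1, the floor plate factor Foxa2, in none. Of all protein-coding genes, 61.3% had a peak in all 4 lists. Among the 45 with a peak in MGE or CTX, 13 were at least 10 points higher in MGE and 5 at least 10 points lower, beside the 12.4% and 10.9% of all genes given above. The median difference over these genes was 0.996 points. Of the 13, 7 came from the list of targets and ventral factors, which was drawn up around ventral identity.

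The other ligands each lacked a peak in 1 list. Ihh had 143 covered bases in MGE, 863 in LGE and 1965 in CGE, with 0 in CTX, and like Shh was absent from CTX. Its highest value was in CGE, as for 72.8% of genes with a peak in any list. Dhh had 0 in MGE, 2060 in LGE and 2202 in CGE, with 244 in CTX. In the list of 9 ligand and release genes, 4 were higher in MGE and 1 was lower. Scube3, a secreted protein that helps release the ligand, was the most covered in MGE with 2345 bases, and had 2787, 3030 and 1796 in the others. Hhat, which attaches the palmitate to the ligand, was among the 4 that were higher, with percentiles of 82.7 in MGE and 70.2 in CTX, and so was Disp2, with 51.3 and 41.0.

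Among the 6 receptor genes, 1 was higher in MGE and 2 lower. The endocytic receptor Lrp2 was 16.6 points higher in MGE. The co-receptors Cdon and Boc, which bind the ligand beside Ptch1, were lower in MGE. Cdon had 1129 bases in MGE, 2686 in LGE and 1415 in CGE, with 2357 in CTX, and Boc 1080, 2114, 1840 and 1910. Their differences were -24.6 and -23.0 points, in the direction of Gli2. The third co-receptor, Gas1, differed by -3.17 points.

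Of the 3 membrane inhibitors, Gpc3 was 10.1 points higher in MGE. Of the 16 intracellular transducers 2 were higher (Gli1 and Prkacb, a catalytic subunit of protein kinase A) and 2 lower (Gli2 and Gpr161). The receptor Gpr161, a ciliary repressor of the pathway, had a peak of 228 bases in CTX alone. Of the 8 genes for the primary cilium, the organelle through which Smo signals, none was higher and 1, Ift172, was lower, with 1503 bases in MGE and 2396 in CTX, and the list medians lay between 55.0 and 56.1 in all 4 lists.

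Of the 6 lists, targets and ventral factors had the widest split between the median percentiles of MGE and CTX. Of 12 with a peak in MGE or CTX, 7 were higher in MGE and none lower, and the median percentile over all 13 was 96.8 in MGE, 92.7 in LGE and 93.0 in CGE, against 39.9 in CTX. Nkx2-1, the factor that specifies the MGE, had 3262 bases in MGE, 2934 in LGE and 3804 in CGE, with 0 in CTX. Nkx2-2, a factor of the most ventral progenitors, had 318, 1014, 1769 and 0. Six3, a forebrain factor acting upstream of Shh, had 5226, 6135, 6793 and 245, and Olig2 had 2621, 2706, 2771 and 283. Gsx2, Nkx6-2 and Dlx2 were the others. The general targets of proliferation, such as Ccnd1 with percentiles of 96.8 in MGE and 97.2 in CTX, were not among the 7.

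**Figure D5:**
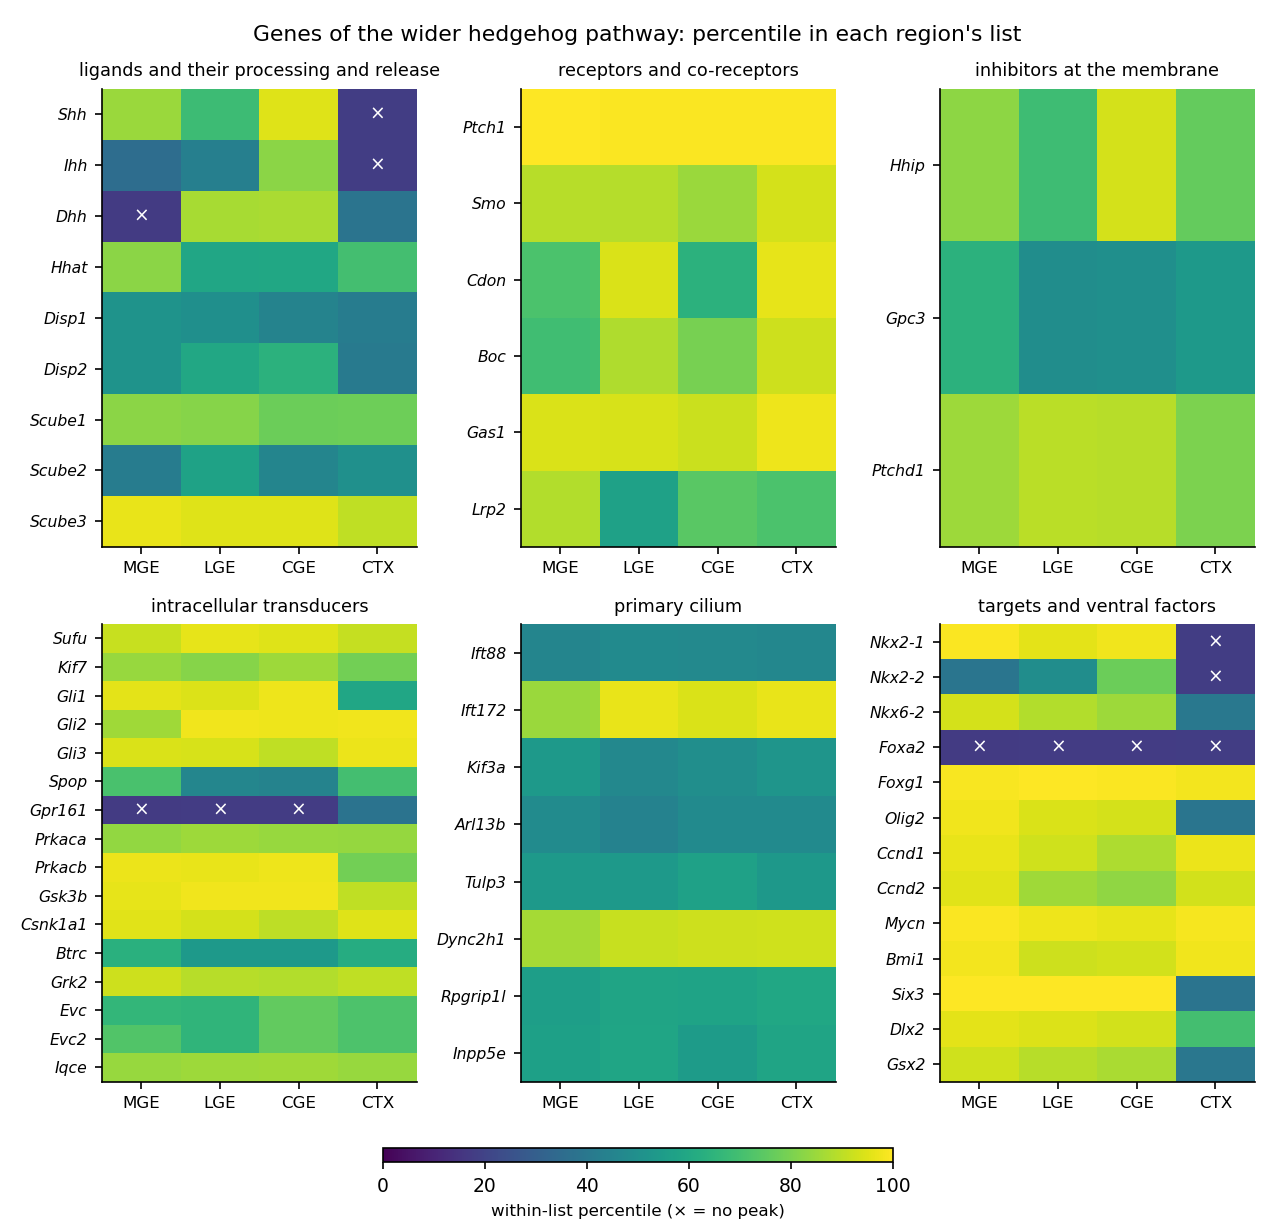
Within-list percentile (colour, 0 to 100) of 55 pathway genes in 6 lists, 1 panel per list with genes as lines and MGE, LGE, CGE and CTX as columns; a cross marks a gene without a peak. In the panel of targets and ventral factors CTX is dark at Nkx2-1, Nkx2-2, Nkx6-2, Olig2, Six3 and Gsx2, and the cilium panel is alike in all 4 columns other than at Ift172.

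By its 4 percentiles, the protein-coding genes nearest to Shh outside the 9 were Lhx8, Gsx1 and AW551984, at Euclidean distances of 14.7, 16.8 and 17.5 points over the 4 lists. Each was without a CTX peak, which distances this short require on this percentile scale. Lhx8, a LIM-homeobox factor of the MGE, had 2066 bases in MGE, 1208 in LGE and 2490 in CGE, with 0 in CTX. Gsx1, a homeobox factor of eminence progenitors, had 1801, 1176, 2087 and 0.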

How the data were processed

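Peak lists of H3K4me3 CUT&Tag from 4 forebrain regions were used. The authors mapped read pairs with Bowtie2 (GRCm38, mm10), dropped blacklisted regions and Picard duplicates, merged replicates and called broad peaks with MACS, and the submitters' processing notes also name SAMtools and deepTools. The MACS version, threshold and control are not given in the sources used here. The deposited fold enrichment is a ratio to the caller's background, the deposited −log10 q was used for ranks and for 1 alternative, and the deposited integer score and −log10 p were not used. Each list stood for its region as a pool of 2 replicates, so these lists allowed no test between regions, and data of single replicates were not analysed here. The study's methods state read depths per replicate before merging, whereas the reads behind each peak are unknown, and no interval was computed.

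Bases under peaks within 5 kb of every GENCODE M21 TSS were counted per protein-coding gene and ranked within each list (mid-rank percentile) with Python 3.11.15 and NumPy 2.4.6, and drawn with Matplotlib 3.10.9. Counts used a limit of 10 percentile points. Interval arithmetic was tested on simulated data. The 9 genes were named in full, as were genes sharing their windows, the 3 genes nearest to Shh by Euclidean distance, other pathway genes with a peak in fewer than 4 lists, and up to 3 per list by covered bases in MGE. A pathway gene and a marker of the lists are not reported here and were left out of the counts. Other single genes were named after their values were seen. The genes and lists were chosen with earlier results of these data known. Alternatives were windows of 2 and 10 kb, the 5′ end alone, peaks with −log10 q at or above 2, lists of equal size (17284 peaks by highest fold), a common minimum width of 243 bp, peaks less than 1 kb apart joined, percentiles over genes with a peak, and ranking by the widest peak.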

Additional observations from a re-analysis of the deposited data

How the results depend on the processing

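For the 9 genes, percentiles and their MGE minus CTX differences were recomputed under 9 alternatives, and covered bases and numbers of genes with a peak under the 7 of these that do not change the ranking alone. Values of the markers and the wider pathway list, nearest-gene shares and shares of genes with a peak over the 5′ end were not recomputed. The numbers of the 9 genes with a peak did not move, except in CTX with lists of equal size, where 7 had one. Shh had no CTX peak under any alternative. The number of the 9 genes at least 10 points higher in MGE than in CTX moved from 2 to 4 with lists of equal size (Shh, Ptch1, Gli1 and Gli3, against 11.3% of all genes), where the lowest folds are left out, the CTX peaks of Gli3 among them. It moved to 4 with percentiles over genes with a peak (Shh, Hhip, Gli1 and Disp1, against 14.9%), which stretches the scale of marked genes. It moved to 1 with peaks less than 1 kb apart joined (Shh, against 12.0%), which fills the gap between the 127 and 164 bp CTX peaks of Gli1 and no other gap there. Ptch1 was also counted around the 5′ end alone, and Disp1 by the widest peak. Gli2 was the 1 gene at least 10 points lower under all 9. The MGE minus CTX difference kept its sign in 9 of 9 alternatives for each gene other than Gli3, which reached 76.8 points with equal list sizes and kept its sign in 8. Ptch1 reached 53.7 points there.

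No paired analysis was possible because the lists used were called after replicates had been merged, and for the same reason these lists gave no values without a replicate. Data of single replicates were not analysed here. The merged reads behind each list are unknown, so an absent peak means only that none was called at that depth. Peak numbers and widths differ between lists, and covered bases were therefore ranked within a list.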
